A study of Rattus norvegicus with 6 samples.

Results

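Microglia are the resident macrophages of the retina, and 38 genes that mark them and other cells of the myeloid lineage were followed in retinas of rats injected with the micelle DMP or with saline. The genes were chosen by name (surface receptors of resting microglia, receptors and their adaptors, lysosome and oxidase genes, and transcription factors of the lineage), with complement and MHC genes left out. A member had to have 10 or more counts in at least 3 libraries. All 38 met this, of 34335 genes in the count table and 18654 that met the same minimum, and all 38 were among the 18571 genes tested. The groups were retinas of wild-type (WT) BN rats, a pigmented inbred strain, given 2 µL of DMP at 10 mg/mL in water, and retinas of WT BN rats given 2 µL of saline, each into the vitreous of the eye, with 3 libraries per group numbered 30, 31 and 33 in both. DMP is a cationic micelle, and the title of the study concerns choroidal neovascularization, the growth of vessels of the choroid into the retina. The vehicle differed between the groups, water with DMP and saline without it, so micelle and vehicle cannot be told apart. Age, the interval from injection to collection and any laser injury are not stated in the labels. Nor do they tie each library to its own animal, so the p-values here reflect library-to-library spread that could be technical.

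In the retina, microglia sit mostly in the synaptic layers, survey neurons with fine processes and clear debris. They depend on signalling by the receptor Csf1r, whose ligands are Csf1 and Il34, and they are held in a resting state in part by neuronal Cx3cl1 acting on Cx3cr1. The transcription factors Spi1 (PU.1), Irf8, Runx1 and Ikzf1 set up the myeloid lineage, and PU.1 and Irf8 can bind DNA together at sites where an ETS motif adjoins an IRF motif. Receptors such as Trem2 and the Fc receptors signal through the adaptors Tyrobp and Fcer1g, which carry the tyrosine motif called ITAM.

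Of the 38 members, 26 had a start site region in the RefSeq promoter table (build GRCr8, 250 bases before to 50 after the annotated start, 300 bases in all). On either strand, the PU.1 motif GAGGAAGT was present in 4 of the 26 (15.4%) and in 2.42% of 33469 promoters of the same length. The ETS-IRF composite motif, GGAA and GAAA with any 2 bases between, was present in 3 of 26 (11.5%), against 2.94% of all promoters. The RUNX motif TGTGGT was found in 6 of 26 (23.1%), against 17.3%, and the pair of interferon response half-sites, GAAA and GAAA with any 2 bases between, in 2 of 26 (7.69%), against 3.92%. The PU.1 and composite motifs share the letters GGAA, and the composite and half-site motifs share GAAA. PU.1 matches lay in Ctss, Cd37, Cd53 and Inpp5d and composite matches in Cybb, Cd68 and Clec7a. In all 7 of these members every DMP library lay above every saline library, as in 17 of all 38 members and 4.42% of all genes tested. The 38 include members without a region to search. Among the 26 searched, Axl, Irf8, Plac8, Ptprc and Runx1 had neither match and were also apart, and the rest overlapped. Of the members with a RUNX match, Clec7a, Cybb and Plac8 were also apart, and Cx3cr1, Gpr34 and Itgam overlapped. Whether a motif goes with the change after DMP was not tested. The regions of the 3 members with a composite match are shown, with that of Ctss, the PU.1-matched member of smallest p, as an example of the 4 with a PU.1 match. Capitals mark the motif matches.
Ctss, chr2:185775146-185775445, + strand: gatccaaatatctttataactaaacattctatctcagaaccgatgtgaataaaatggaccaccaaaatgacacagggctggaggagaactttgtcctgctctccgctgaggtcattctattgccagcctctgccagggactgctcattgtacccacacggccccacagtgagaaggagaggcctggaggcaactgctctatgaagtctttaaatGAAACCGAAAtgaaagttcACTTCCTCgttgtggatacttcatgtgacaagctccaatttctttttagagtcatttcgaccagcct
Cybb, chrX:16065016-16065315, - strand: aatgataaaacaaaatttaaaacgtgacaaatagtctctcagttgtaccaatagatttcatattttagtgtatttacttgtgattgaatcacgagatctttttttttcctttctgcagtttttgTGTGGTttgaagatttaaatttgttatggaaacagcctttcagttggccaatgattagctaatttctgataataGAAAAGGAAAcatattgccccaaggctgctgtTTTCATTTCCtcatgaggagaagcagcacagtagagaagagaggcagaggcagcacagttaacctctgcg
Cd68, chr10:54882392-54882691, - strand: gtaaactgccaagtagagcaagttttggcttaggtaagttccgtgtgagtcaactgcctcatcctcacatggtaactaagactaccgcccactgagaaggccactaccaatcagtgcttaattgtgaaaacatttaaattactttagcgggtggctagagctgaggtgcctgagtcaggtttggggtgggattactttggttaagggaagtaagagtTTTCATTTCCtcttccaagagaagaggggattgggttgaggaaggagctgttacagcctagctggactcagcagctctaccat
Clec7a, chr4:164599778-164600077, - strand: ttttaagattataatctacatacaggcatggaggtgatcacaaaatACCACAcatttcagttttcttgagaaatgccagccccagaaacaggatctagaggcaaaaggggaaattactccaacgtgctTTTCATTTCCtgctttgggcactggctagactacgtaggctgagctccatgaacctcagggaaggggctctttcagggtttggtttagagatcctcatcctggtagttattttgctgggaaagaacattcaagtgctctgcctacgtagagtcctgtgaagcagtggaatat
The composite match has the same 10 letters, TTTCATTTCC on the strand of the gene, in Cybb, Cd68 and Clec7a. It lies 20 to 11 bases before the annotated start in Cybb, 33 to 24 bases before it in Cd68 and 122 to 113 bases before it in Clec7a. In Ctss the PU.1 match lies 17 to 10 bases before the start and the half-site pair 36 to 27 bases before it. These matches describe letters in a reference genome; binding was not measured.

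Counts per library totalled between 47842234 and 52529314 after DMP and between 50900221 and 53255925 after saline. DMP library 30 was far from the other 5 on principal component 1, which held 28.1% of the variance. Rn18s, the 18S ribosomal RNA that poly(A) selection should deplete, made up 0.0439% to 0.159% of the DMP counts, against 0.0121% to 0.0338% of the saline counts. Its part in the differences given here was not tested. Resting microglia were represented in every library, with 200 to 334 counts of Cx3cr1, 212 to 343 of P2ry12 and 153 to 230 of Tmem119 after DMP, and 187 to 265, 240 to 248 and 130 to 162 after saline. Of 10 genes of blood monocytes and neutrophils 3 had enough counts to test. The neutrophil genes S100a8, S100a9, Elane and Camp had 0 counts in all 6 libraries, and the monocyte receptor Ccr2 had 2, 16 and 15 counts after DMP and 6, 4 and 11 after saline. Csf3r, the receptor for granulocyte colony-stimulating factor, had higher levels in every DMP library, with 110, 59 and 76 counts after DMP and 47, 46 and 49 after saline (log2 fold change 0.83, edgeR unadjusted p = 0.0122, adjusted p = 0.691). Ngp had 708, 621 and 639 counts after DMP and 624, 631 and 590 after saline, also without overlap in CPM (log2 fold change 0.14, edgeR unadjusted p = 0.156). It made up most of that list's summed level, which was 14.4 to 16.2 CPM after DMP and 12.5 to 13.3 CPM after saline. Of 13 lymphocyte genes 2 reached the level needed for testing, and Ms4a1 was at 0 throughout; their summed level was 4.28 to 6.05 CPM after DMP and 3.32 to 4.90 CPM after saline. What part the cells behind these lists played in the members' levels was not tested.

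Most members had higher fitted levels after DMP, by modest amounts, and none passed the test over all genes. Of the 38, 35 had a fitted log2 fold change above 0 and 3 below 0, where 9278 of the 18571 genes tested (50.0%) were above 0. The median log2 fold change was 0.52, beside 0.00 over all genes tested. In edgeR's quasi-likelihood test, 0 of 38 members had a Benjamini-Hochberg adjusted p under 0.05 in either direction, as 0.0215% of all genes tested did. At an unadjusted p under 0.05, 22 members were higher and 0 lower in DMP, where 2.08% of all genes were higher and 2.56% lower at that level. All 3 DMP libraries lay above all 3 saline libraries for 17 members, and below them for 0, where 4.42% and 4.88% of all genes did so. The call of single genes depended on the tool. DESeq2 placed 9 members above saline at an adjusted p under 0.05 (0.188% of all genes tested were higher by that rule), and limma-voom placed 0 (0.0215% of all genes). The 9 were Ctss, Cybb, Cd68, Cd4, Axl, Selplg, Csf1r, Plac8 and Irf8. Levels are given as CPM, which are counts scaled to library size, here with trimmed mean of M-values factors. In whole retina, more myeloid cells and more transcript per cell cannot be told apart.

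**Figure D1:**
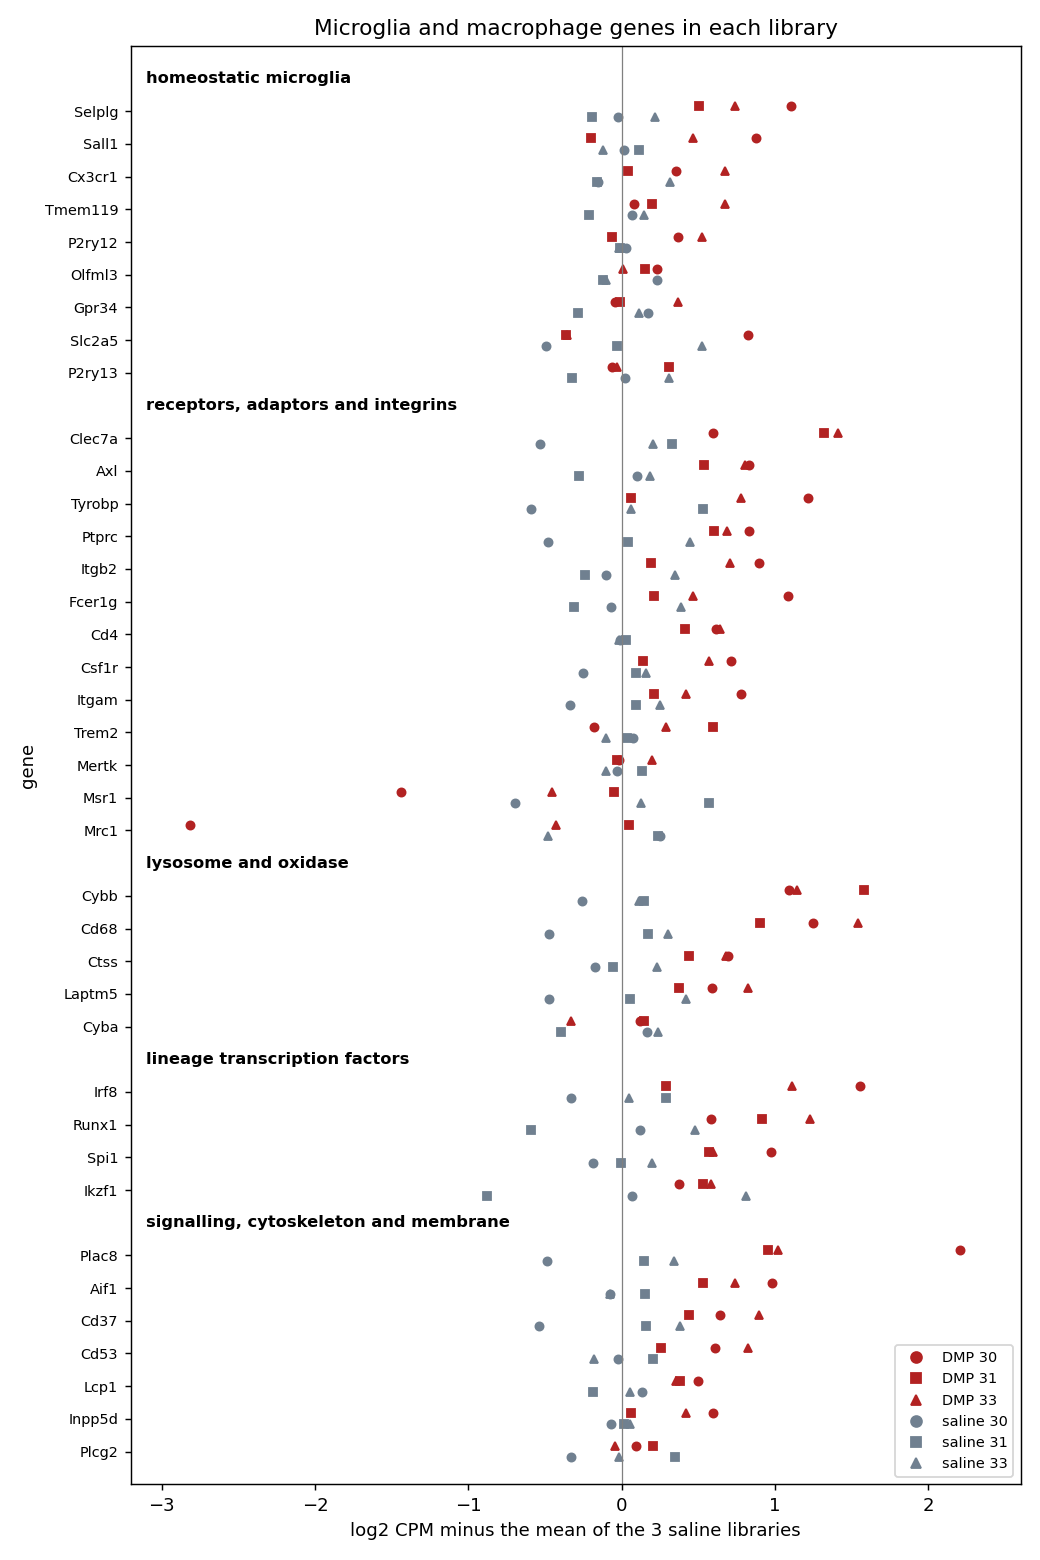
Log2 CPM of each of the 38 genes in each library, minus the mean of the 3 saline libraries, with genes grouped by role (DMP red, saline grey, a symbol for each library number). Most red points lie right of 0, while Mrc1 and Msr1 in DMP 30 lie furthest to the left.

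Members of the lysosome and the oxidase included the differences of smallest p. Ctss (mRatBN7.2 chr2:183089192-183114483, + strand), the lysosomal protease cathepsin S, had 51.0, 42.8 and 50.7 CPM in DMP libraries 30, 31 and 33, against 28.0, 30.4 and 37.1 CPM in saline libraries 30, 31 and 33. Every DMP library lay above every saline library, and the fold change was 1.51 (95% interval 1.29 to 1.78, edgeR adjusted p = 0.0969). Cybb, the membrane subunit of the phagocyte NADPH oxidase that makes superoxide, had 2.65, 3.73 and 2.75 CPM after DMP, against 1.04, 1.38 and 1.35 CPM after saline. Its groups were apart as well, with a fold change of 2.42 (interval 1.72 to 3.40, edgeR adjusted p = 0.0969). Cd68, a glycoprotein of macrophage lysosomes, had 4.55, 3.58 and 5.57 CPM after DMP, against 1.38, 2.16 and 2.37 CPM after saline. This was a fold change of 2.32 (interval 1.61 to 3.33) with no overlap, and an edgeR adjusted p of 0.130. Laptm5, a lysosomal membrane protein of blood cells, had 9.13, 7.87 and 10.8 CPM after DMP and 4.37, 6.32 and 8.14 CPM after saline, so that DMP 31 lay below saline 33. Cyba is the partner of Cybb in the oxidase membrane complex. It had 3.82, 3.89 and 2.79 CPM after DMP and 3.94, 2.67 and 4.13 CPM after saline, with a log2 fold change of -0.03 (interval -0.49 to 0.43). Cyba is made by many cell types, and whether its change differed from that of Cybb was not tested.

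Of the soluble partners of the oxidase, 0 passed over all genes in edgeR and 1 was higher at an unadjusted p under 0.05. This was Ncf1, the organising subunit, with 374, 308 and 392 counts after DMP and 165, 221 and 313 counts after saline, and a log2 fold change of 0.67 (edgeR adjusted p = 0.538). Its groups did not overlap in CPM. Ncf4, a regulatory subunit, and Rac2, a small GTPase of blood cells, had log2 fold changes of 0.05 and 0.35 with overlapping groups.

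The receptors, adaptors and integrins held 13 members, of which 8 were higher at an unadjusted p under 0.05 and 0 passed over all genes in edgeR (the median log2 fold change was 0.56). Cd4, a T cell co-receptor that macrophages and microglia of the rat also carry, had 15.4, 13.4 and 15.7 CPM after DMP. After saline it had 10.0, 10.2 and 9.94 CPM, values that lay close together. Its groups did not overlap and its fold change was 1.47 (interval 1.27 to 1.72, edgeR adjusted p = 0.0969). Among T cell and cytotoxic cell genes, Cd3d, Cd3e and Cd3g had at most 13 counts in any library. Cd8a had 8, 10 and 25 counts after DMP and 0, 0 and 7 after saline, and Nkg7 had 9, 3 and 20 after DMP and 0 in each saline library, both too few to test. The T cell kinase Lck had 86, 33 and 30 counts after DMP and 45, 5 and 59 after saline, with overlap. The part of such cells in the level of Cd4 was not tested. Axl, a receptor that recognises dying cells through Gas6, had 15.5, 12.7 and 15.3 CPM after DMP and 9.35, 7.2 and 9.90 CPM after saline, again with no overlap. The fold change of Axl was 1.65 (interval 1.33 to 2.03, edgeR adjusted p = 0.122). Mertk, a receptor of the same family that photoreceptor outer segment uptake by the pigment epithelium requires, had 17.3, 17.1 and 20.0 CPM after DMP and 17.1, 19.1 and 16.3 CPM after saline. The groups overlapped, with DMP 33 the highest library and saline 33 the lowest, and the interval of its fold change was 0.891 to 1.20.

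Csf1r, the receptor that microglia need to survive, had 43.8, 29.3 and 39.5 CPM after DMP and 22.4, 28.4 and 29.7 CPM after saline. DMP 31 lay within the saline range, and the fold change was 1.40 (interval 1.12 to 1.74, edgeR adjusted p = 0.505). Ptprc, the phosphatase CD45 of all white blood cells, had 5.23, 4.46 and 4.73 CPM after DMP and 2.11, 3.02 and 4.00 CPM after saline, without overlap. Clec7a, the receptor dectin-1 for fungal glucans, had 1.03, 1.71 and 1.82 CPM after DMP and 0.472, 0.857 and 0.789 CPM after saline, also without overlap. With 54 to 93 counts per library after DMP and 24 to 46 after saline, its fold change of 2.14 had a wide interval of 1.28 to 3.57. The integrin chains Itgam and Itgb2, which pair as complement receptor CR3, had log2 fold changes of 0.47 and 0.60 with overlapping groups.

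The adaptors were less certain. Tyrobp had 3.38, 1.52 and 2.50 CPM after DMP and 0.965, 2.11 and 1.52 CPM after saline. Fcer1g had 10.3, 5.64 and 6.72 CPM after DMP and 4.65, 3.93 and 6.37 CPM after saline. In both, DMP 30 was the highest library and DMP 31 lay within the saline range. Without DMP 30 the log2 fold change was 0.39 for Tyrobp and 0.31 for Fcer1g, against 0.69 and 0.60 with all libraries. Trem2, which signals through Tyrobp, had 1.24, 2.13 and 1.72 CPM after DMP and 1.48, 1.44 and 1.31 CPM after saline, and here DMP 30 was the lowest library. Of 15 other genes of ITAM signalling, 14 could be tested and all 14 had a fitted change above 0, with a median of 0.33. In edgeR 0 of them passed over all genes and 3 were higher at an unadjusted p under 0.05, among them the adaptor Lat2 (log2 fold change 0.72) and the kinase Btk (0.83). For Lat2 and Btk the groups did not overlap. The kinase Syk, which binds phosphorylated ITAMs, had 139, 67 and 96 counts after DMP and 60, 49 and 87 counts after saline, with overlap.

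Ligands of the members' receptors, listed together with Tgfb1, whose receptor was not a member, were centred near 0. Of the 7 genes tested, Tgfb1 included, 0 passed over all genes in edgeR and 0 had an unadjusted p under 0.05. Of these, 3 were above 0 and 4 below, and the median log2 fold change was -0.03. Tgfb1 had a log2 fold change of 0.26, with every DMP library above every saline library. The Csf1r ligands Csf1 and Il34 were at 7.36 and 10.3 CPM on average after DMP and at 7.95 and 10.8 CPM after saline. The Axl and Mertk ligand Gas6 averaged 143 CPM after DMP and 146 CPM after saline.

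**Figure D2:**
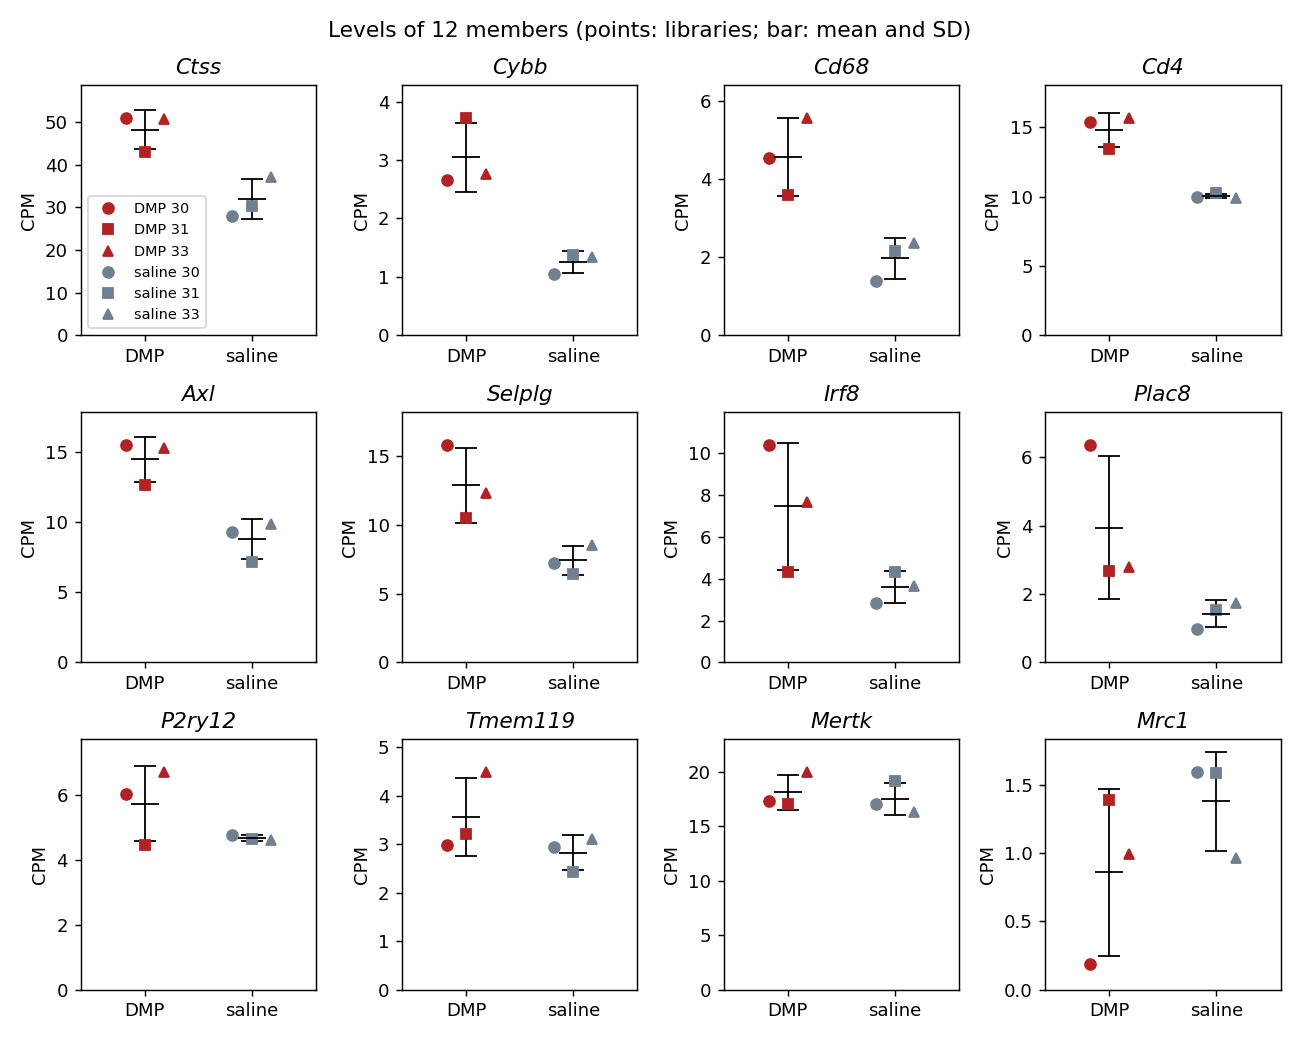
CPM of 12 members in each library (points, DMP left in red, saline right in grey), with the mean and SD of each group as a bar, on axes that start at 0. The first 8 genes have all DMP points above all saline points, and P2ry12, Tmem119, Mertk and Mrc1 have overlapping groups.

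Genes of resting microglia had the lowest median of the 5 roles, although differences between roles were not tested. Of 9, all had a fitted change above 0 (50.0% of all genes tested did), with a median of 0.30. At an unadjusted p under 0.05, where 2.08% of all genes were higher, 1 was higher. That gene was Selplg, the selectin ligand PSGL-1, which other leukocytes make too. It had 15.9, 10.5 and 12.3 CPM after DMP and 7.26, 6.47 and 8.58 CPM after saline, without overlap, for a fold change of 1.73 (interval 1.35 to 2.22, edgeR adjusted p = 0.143). The purinergic receptor P2ry12, by which resting microglia sense nucleotides, had 6.02, 4.46 and 6.70 CPM after DMP and 4.76, 4.62 and 4.62 CPM after saline. Tmem119 had 2.98, 3.22 and 4.49 CPM after DMP and 2.95, 2.42 and 3.12 CPM after saline. Cx3cr1, the fractalkine receptor, had 5.23, 4.21 and 6.53 CPM after DMP and 3.68, 3.67 and 5.10 CPM after saline. In each of these 3 the groups overlapped, and the fold change intervals were 0.954 to 1.58, 0.926 to 1.71 and 0.949 to 1.73, which reach from below 1 to past the fold of Ctss. The transcription factor Sall1 had 8.00, 3.79 and 6.02 CPM after DMP and 4.39, 4.70 and 4.00 CPM after saline, so DMP 31 was the lowest of all 6. Slc2a5, a fructose transporter, had 4.22 CPM in DMP 30 but 1.85 and 1.86 CPM in DMP 31 and 33, against 1.69, 2.33 and 3.42 CPM in saline. Without DMP 30 its log2 fold change was -0.42, against 0.09 with all libraries. P2ry13, Gpr34 and Olfml3 had log2 fold changes of 0.06, 0.10 and 0.12. P2ry12 and P2ry13 lie within the span of Med12l, and Gpr34 within that of Cask, each on the opposite strand, and the use of strand in counting is not given. Med12l averaged 37.96 CPM after DMP and 38.7 CPM after saline, and Cask 85.6 CPM after DMP and 81.1 CPM after saline. In all, 10 members overlap another listed gene. Of the others, Cd37 overlaps Tead2, at 5.71 CPM after DMP and 5.25 CPM after saline, and the sparse Slc6a16, and Csf1r, Sall1, Olfml3, Clec7a, Spi1 and Runx1 each overlap an uncharacterised gene with at most 26 counts per library.

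Of 11 other microglia genes that were not members, 10 were tested, with a median log2 fold change of 0.11, and 0 passed over all genes in edgeR. Adgre1, which in mouse is the macrophage marker F4/80, and Cd33, a sialic acid receptor, were higher at an unadjusted p under 0.05, with log2 fold changes of 0.56 and 0.60, and Adgre1 had overlapping groups. Hpgds, a prostaglandin D synthase, was lower at that level, with a log2 fold change of -0.89, 134, 117 and 167 counts after DMP and 315, 319 and 168 counts after saline. DMP 33 lay just below saline 33 in raw counts and the groups overlapped in CPM. Siglech had 22, 4 and 6 counts after DMP and 0 in each saline library, too few to test. Of 12 genes that mark disease-associated microglia in mouse brain, 11 were tested and the median was -0.05, with 3 above 0 and 8 below. Itgax, the integrin chain CD11c, was the only one at an unadjusted p under 0.05, with 158, 100 and 68 counts after DMP and 56, 79 and 73 counts after saline, with DMP 33 inside the saline range. Several genes of that list, among them Apoe, Ctsb, Ctsd and Cd63, are also made by retinal cells other than microglia.

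All 4 transcription factors of the lineage had a fitted change above 0. In edgeR 3 had an unadjusted p under 0.05, with none past the threshold over all genes. Of all genes tested, 50.0% were above 0 and 2.08% were higher at that unadjusted level. Irf8 had 10.4, 4.34 and 7.64 CPM after DMP and 2.82, 4.32 and 3.65 CPM after saline. The gap between the groups was small, with DMP 31 just above saline 31, and the fold change was 2.07 (interval 1.36 to 3.16, edgeR adjusted p = 0.367). Spi1, which encodes PU.1, had 2.86, 2.17 and 2.21 CPM after DMP and 1.28, 1.45 and 1.67 CPM after saline, without overlap, for a fold change of 1.64 (interval 1.18 to 2.29, edgeR adjusted p = 0.538). Runx1 had 1.22, 1.54 and 1.91 CPM after DMP and 0.886, 0.541 and 1.13 CPM after saline, and its groups too were apart. Ikzf1 had 1.51, 1.68 and 1.74 CPM after DMP, inside the saline range of 0.634 to 2.04 CPM.

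Of the 7 signalling, cytoskeletal and membrane genes, 6 were higher at an unadjusted p under 0.05 and did not overlap between groups. In edgeR 0 passed over all genes. Over all genes tested, 2.08% were higher at that unadjusted level and 4.42% were apart on the higher side. Plac8, a small cysteine-rich protein of myeloid and lymphoid cells, had the highest fitted change of the members, with 6.36, 2.67 and 2.79 CPM after DMP and 0.984, 1.53 and 1.75 CPM after saline. DMP 30 lay far above the other libraries. The fold change of Plac8 was 2.77 (interval 1.63 to 4.71, edgeR adjusted p = 0.250), and its log2 fold change was 1.47 with all libraries and 0.94 without DMP 30. Aif1, the calcium-binding protein Iba1 used to stain microglia, had 5.67, 4.17 and 4.81 CPM after DMP and 2.74, 3.21 and 2.73 CPM after saline. Its fold change was 1.69 (interval 1.30 to 2.19, edgeR adjusted p = 0.210). Lcp1, the actin-bundling protein L-plastin, had 19.4, 17.9 and 17.6 CPM after DMP and 15.1, 12.1 and 14.3 CPM after saline, a fold change of 1.33 (interval 1.14 to 1.55). The tetraspanins Cd53 and Cd37 and the lipid phosphatase Inpp5d had log2 fold changes of 0.57, 0.62 and 0.37. The phospholipase Plcg2 had 1.87, 2.02 and 1.70 CPM after DMP, inside the saline range of 1.40 to 2.24 CPM.

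**Figure D3:**
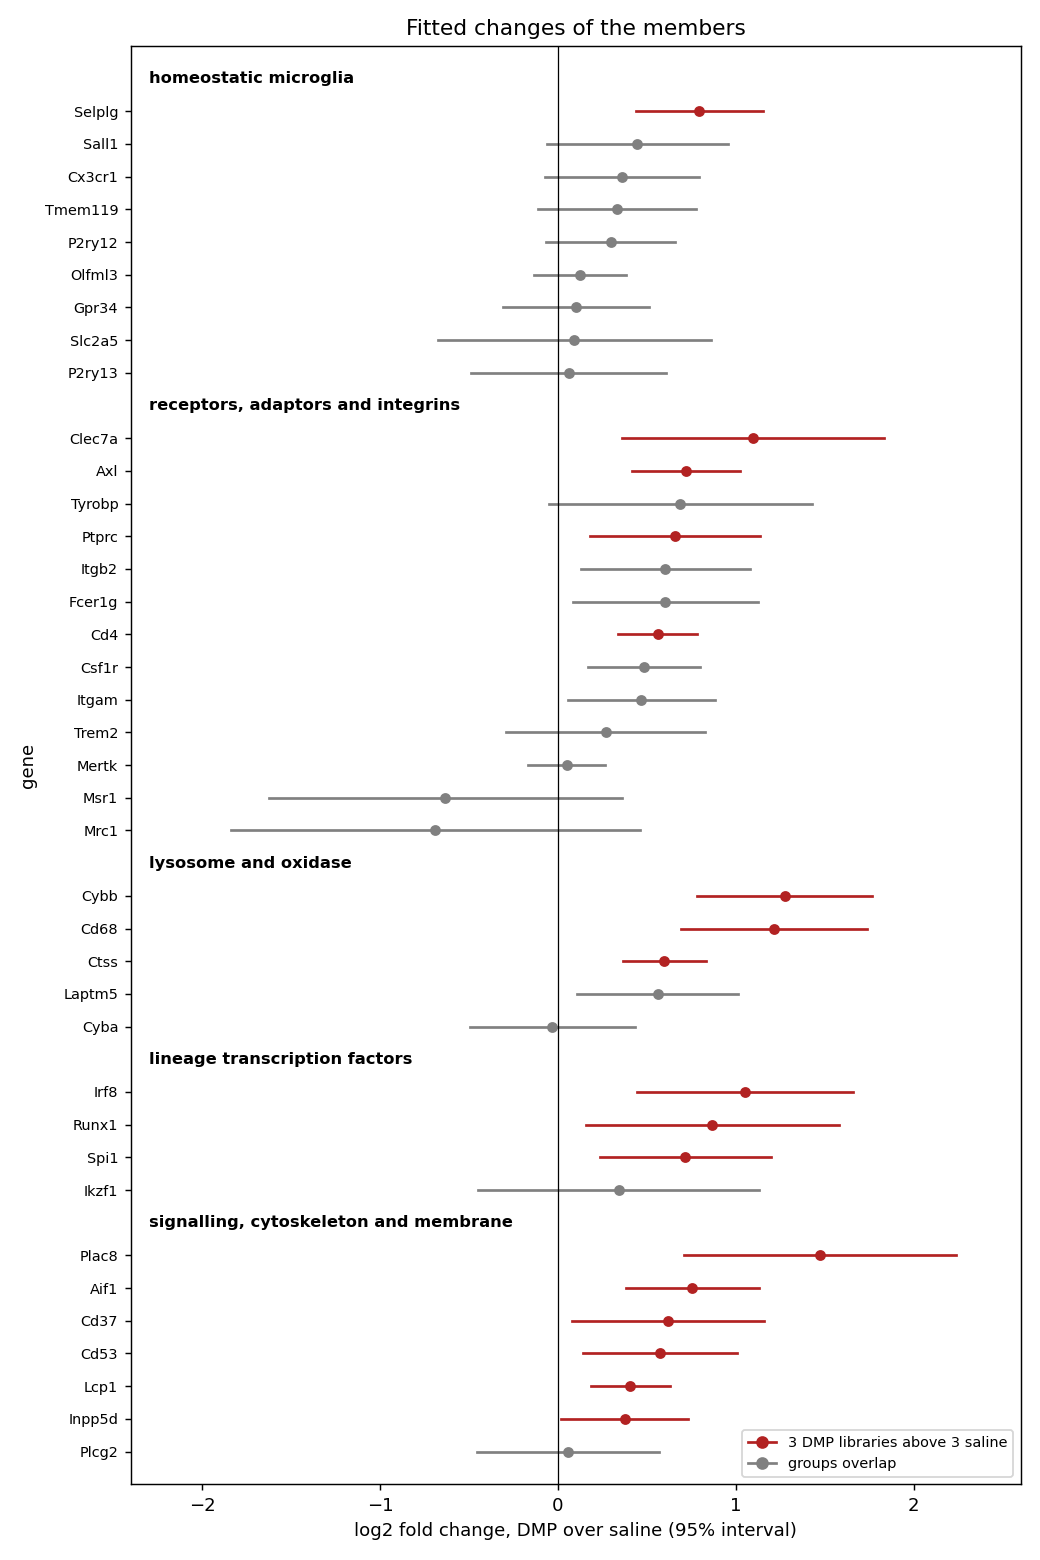
Fitted log2 fold change of DMP over saline for the 38 genes with 95% intervals, grouped by role, in red where all 3 DMP libraries lay above all 3 saline libraries. The points lie between -0.69 for Mrc1 and 1.47 for Plac8, and 35 of 38 are right of 0.

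The members below 0 were Cyba and the scavenger receptors Mrc1 and Msr1, which are known from macrophages that line vessels and membranes more than from microglia. Mrc1, the mannose receptor CD206, had 10, 66 and 51 counts after DMP and 81, 85 and 50 counts after saline. Its log2 fold change was -0.69 (interval -1.84 to 0.46), and -0.21 without DMP 30. Msr1 had 16, 38 and 31 counts after DMP and 26, 66 and 47 counts after saline, a log2 fold change of -0.63 (interval -1.63 to 0.36), and -0.33 without DMP 30. The groups overlapped in both genes, and counts this low limit what can be said. Genes of border macrophages outside the members lay on the same side. Of 7, 5 were tested and all 5 were below 0, with a median log2 fold change of -0.79, and 0 passed over all genes in edgeR. F13a1, a coagulation factor subunit of tissue macrophages, was lower at an unadjusted p under 0.05, with 41, 69 and 57 counts after DMP and 93, 138 and 134 counts after saline (log2 fold change -1.06, edgeR adjusted p = 0.341), and its groups did not overlap. Cd163 had 7, 37 and 42 counts after DMP and 29, 100 and 29 counts after saline, and Stab1 had 88, 129 and 162 after DMP and 164, 281 and 154 after saline, each with overlap. The summed level of the list was 2.65 to 6.02 CPM after DMP and 6.28 to 11.0 CPM after saline. Genes of fibroblasts, which a dissection can carry in with the choroid or sclera, were lower in the same libraries. Their summed level was 36.4 to 59.4 CPM after DMP and 83.3 to 95.4 CPM after saline. At an unadjusted p under 0.05 in edgeR, 5 of 7 were lower, where 2.56% of all genes tested were. None of the 7 was at 0 in all libraries. Of 7 lens genes 6 were tested and 3 were lower at that level, with a summed level of 3.38 to 32.9 CPM after DMP and 15.2 to 32.3 CPM after saline. The part of such tissue in the border macrophage values was not tested.

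Libraries of a group differed in how far the members stood from saline. Set against the saline mean of each gene, the median member was 0.61 higher in DMP 30, 0.27 higher in DMP 31 and 0.62 higher in DMP 33 on the log2 scale, and at -0.07, 0.03 and 0.17 in saline 30, 31 and 33. DMP 30 was the highest of all 6 libraries for 17 members, DMP 33 for 12 and DMP 31 for 3, and each saline library for 2. Saline 30 was the lowest of all 6 for 16 members and saline 31 for 13, while DMP 33 was lowest for 0. Summed over the 38 members, CPM were 325.6, 256.7 and 306.2 in DMP 30, 31 and 33, against 196.7, 206.5 and 230.5 in saline 30, 31 and 33. Leaving out Ctss and Csf1r, which gave the most counts, the sums were 184.5 to 230.8 CPM after DMP and 146.3 to 163.6 CPM after saline. The groups were apart in both sums.

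Interferon-stimulated genes, which microglia among other cells can express, were highest in DMP 30. Their summed level was 358.7, 163.3 and 97.1 CPM in DMP 30, 31 and 33, against 78.9, 93.8 and 128.9 CPM in saline 30, 31 and 33. Of the 12 genes, 0 passed over all genes in edgeR, and none was at 0 throughout. At an unadjusted p under 0.05, 11 were higher, where 2.08% of all genes tested were. In DMP 33 this sum was inside the saline range. By single gene, all 3 DMP libraries lay above all 3 saline libraries for 3 of the 12, Rsad2 and Ifit3 among them (4.42% of all genes tested). The median member was 0.62 above saline in DMP 33 and 0.61 above it in DMP 30. The part of the interferon genes' source in the members' levels was not tested. Without DMP 30, 18 of the 38 members were higher at an unadjusted p under 0.05 in edgeR (1.62% of all genes were) and the median was 0.42. The groups then did not overlap for 19 members on the higher side, where 9.49% of all genes did so.

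**Figure D4:**
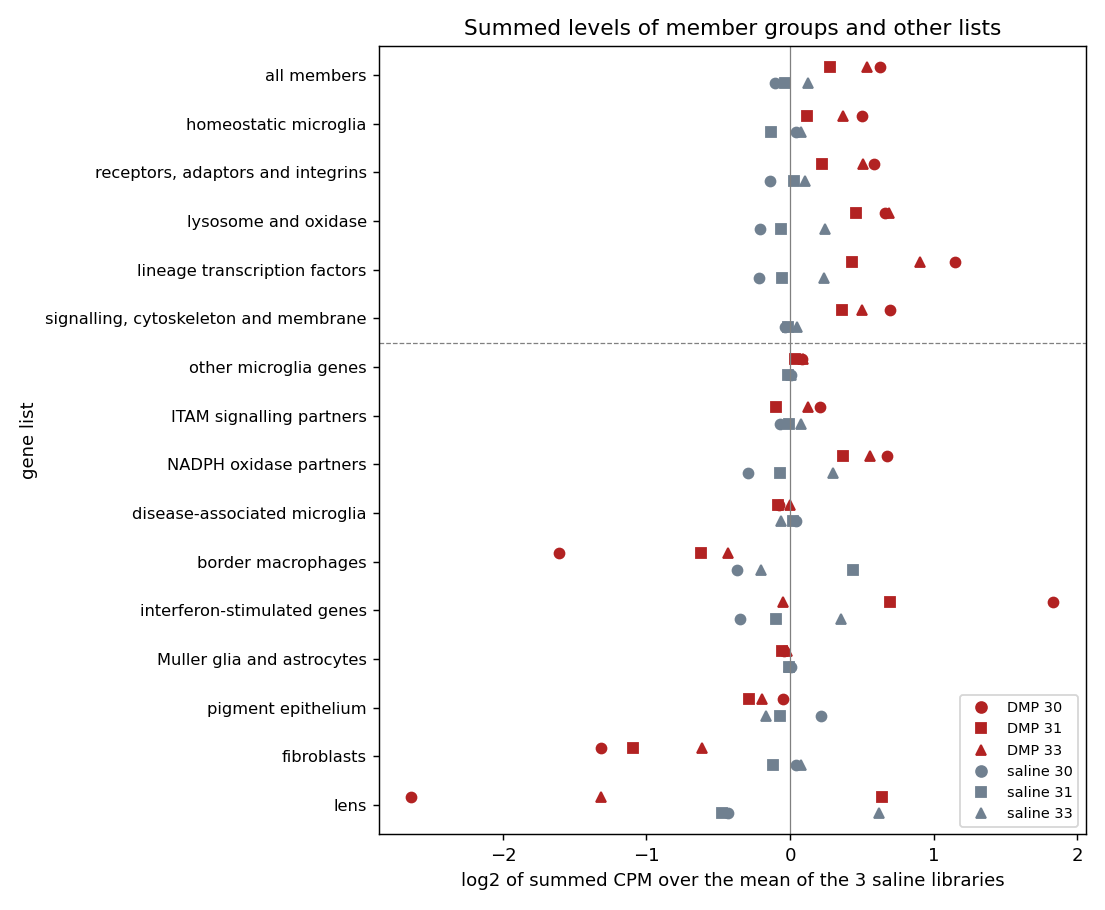
Log2 of the summed CPM of the members, their roles (above the dashed line) and other gene lists (below it) in each library, minus the saline mean (DMP red, saline grey). For the 38 members together the DMP libraries lie right of the saline libraries, for border macrophages and fibroblasts they lie left of them, and for interferon-stimulated genes DMP 30 lies far to the right and DMP 33 among the saline libraries.

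Of 8 cell cycle genes 7 were below 0, with a median log2 fold change of -0.40, 1 lower at an unadjusted p under 0.05 (Aurkb) and 0 past the threshold over all genes in edgeR, and Mki67 had 105, 76 and 84 counts after DMP and 152, 89 and 151 after saline. Of 7 genes of Müller glia and astrocytes, the median was 0.04, with 1 higher and 1 lower at an unadjusted p under 0.05. The lower one was Vim, an intermediate filament, with a log2 fold change of -0.38 and an edgeR adjusted p of 0.0582. The medians were 0.00 for 7 rod genes and 0.06 for 7 endothelial genes, with 0 at an unadjusted p under 0.05 in either list. Of 8 pigment epithelium genes, 4 were lower at that level, where 2.56% of all genes tested were. In edgeR 0 passed over all genes, and the median was -0.67. The 4 were the melanin pathway and melanosome genes Tyr, Tyrp1, Pmel and Mlana. Other genes of the list did not share this fall. Rpe65 and Ttr had log2 fold changes of 0.43 and 0.18, each with DMP 30 the highest library. Best1 had -0.04, and the groups overlapped in Rpe65, Ttr and Best1. Tyr, the enzyme tyrosinase, had 6, 20 and 6 counts after DMP and 172, 55 and 67 after saline (log2 fold change -3.13, edgeR adjusted p = 0.120), and Tyrp1 had 437, 372 and 333 after DMP and 2111, 746 and 917 after saline (log2 fold change -1.69). Both were without overlap, as was Mlana. The summed level of the list was 288.0 to 339.0 CPM after DMP and 312.2 to 407.0 CPM after saline, mostly from Rlbp1, which Müller glia also make and whose log2 fold change was -0.07. The part of pigmented tissue in the members' levels was not tested.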

How the data were processed

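RNA of 6 rat retina libraries was sequenced after selection of polyadenylated RNA and strand marking with dUTP, per the labels' protocols. Reads were trimmed with cutadapt 1.9, checked with FastQC and the build named is mRatBN7.2, per the submitters' processing notes. No source used here names the aligner, the counting tool or its use of strand. The deposited count table holds whole-number values, treated here as estimated counts because 673 to 741 genes per library stood at 4 and only 301 to 325 at 3; how they were made is not stated. The deposited FPKM values were made by the authors, and they were used only within a gene.

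Genes were kept with edgeR's default filter (minimum count 10, total 15). CPM used trimmed mean of M-values factors. The test of DMP against saline was edgeR 4.0.16 (R 4.3.3) quasi-likelihood, two-sided, with group as the only term and Benjamini-Hochberg adjustment over 18571 genes (threshold 0.05). Intervals are at 95%. No molecular identifiers are mentioned, so reads copied by PCR count as separate. Alternatives were DESeq2 1.42.0, limma-voom 3.58.1, DESeq2 size factors, no filter, a stricter filter (50 counts in 3 libraries), a replicate block and leaving out each library. The procedure was tested on simulated data. Named genes were all members and, in other lists, up to 4 of the smallest p or those needed to state a level. Members and lists were chosen with earlier results of these data known, and the 12 members plotted singly and the 4 start site regions shown were picked after their values were seen. Some genes of the comparison lists are not reported here.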

Additional observations from a re-analysis of the deposited data

How the results depend on the processing

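At an adjusted p under 0.05, 9 members were higher in DMP with DESeq2, against 0 with edgeR. With the replicate block 2 members, Ctss and Axl, passed in edgeR (adjusted p = 0.0401 for both), where 0.0431% of all genes were higher. Whether the numbers 30, 31 and 33 pair the libraries is not stated in the labels. The deviations of same-numbered libraries from their group means correlated at 0.07, 0.03 and 0.03 across genes. Differently numbered libraries correlated between -0.08 (DMP 31 with saline 30) and 0.05 (DMP 31 with saline 33). With 3 libraries per group, correlations this small cannot settle whether the numbers pair them. The cause of the changes in the calls was not tested. DESeq2 size factors, no filter, the stricter filter and limma-voom left the count at 0. Leaving out each library in turn, 0 members passed, 16 to 26 were higher at an unadjusted p under 0.05 (1.62% to 4.34% of all genes), 0 were lower, and the median log2 fold change was 0.42 to 0.65. Fitted signs turned for 6 members when single libraries were left out. Their log2 fold changes then ran between -0.42 and 0.39 for Slc2a5, -0.09 and 0.22 for P2ry13, -0.09 and 0.25 for Plcg2, -0.05 and 0.18 for Gpr34, -0.21 and 0.11 for Cyba, and -0.03 and 0.12 for Mertk. Members without overlap numbered 17 with DESeq2 size factors, 15 in plain CPM and 16 in deposited FPKM. The value without DMP 30 for groups that do not overlap was added after the data were seen. With 3 libraries per group, sparse members such as Clec7a, Mrc1 and Msr1 have wide intervals.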

Other observations

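The deposited FPKM values imply lengths that some members do not have. Setting CPM against FPKM gives the length that the authors' calculation implies for a gene. This length was 6640 bases for Cd68, whose gene spans 1880 bases in the authors' table, 8552 bases for Tyrobp, whose gene spans 3926 bases, and 11010 bases for Trem2, whose gene spans 6586 bases. For Laptm5 it was 400 bases in a gene of 22049 bases, and for Cybb 775 bases in a gene of 31935 bases. Among 18182 genes with a count above 20 in a library, 1886 (10.4%) had an implied length above the span of their gene. FPKM were therefore not used to order genes, and the tests used counts.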
